A study of Rattus norvegicus with 29 samples.

Results

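The microRNAs (miRNAs) miR-204 and miR-211 were followed in the blood plasma of 29 rats. Members were the entries of the count table whose name, without the species prefix rno-, has exactly the stem miR-204 or miR-211, from either arm of the hairpin. This gave 4 of 754 miRNAs, namely rno-miR-204-5p, rno-miR-204-3p, rno-miR-211-5p and rno-miR-211-3p, written below without the prefix. The rats were adult male Sprague-Dawley animals from 3 study sites named UEF, Monash and UCLA, and plasma came from tail vein blood drawn 48 h after surgery. In 19 rats the surgery was a lateral fluid-percussion injury, an experimental traumatic brain injury (TBI), and the 10 sham-operated rats had the operation without the impact. Continuous video-EEG in the seventh month after injury divided the injured rats into 9 with epilepsy (TBIE) and 10 without (TBIN), so the outcome was assigned long after the plasma was drawn. UEF gave 4 sham, 4 TBIN and 4 TBIE rats, Monash 3, 3 and 2, and UCLA 3 of each. Each rat was 1 small RNA library, and the labels name no drug and no altered genotype in any group. Per the paper on these rats, drugs after surgery differed by site. UEF and Monash used buprenorphine, and UCLA used flunixin meglumine and chow with trimethoprim sulfamethoxazole.

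As background, the gene of miR-204 lies in an intron of Trpm3 and that of miR-211 in an intron of Trpm1, which both encode ion channels of the TRP family. Both miRNAs are known from pigmented and secretory epithelia: miR-204 is abundant in the choroid plexus, the epithelium that makes cerebrospinal fluid, and in the retinal pigment epithelium, and miR-211 is also known from melanocytes. A mature miRNA pairs with messenger RNAs through its seed, the bases near its 5′ end, and lowers their translation or stability. Plasma holds miRNAs released by many tissues, so a plasma level names no source, and in such bulk samples fewer releasing cells of a type and less RNA per cell cannot be told apart.

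The mature sequences are shown because the 5p arms are nearly the same molecule, which bears on how their reads could be counted apart. They are written 5′ to 3′ from RefSeq (build GRCr8), with capitals marking the seed, bases 2 to 8.
rno-miR-204-5p: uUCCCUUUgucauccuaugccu
rno-miR-211-5p: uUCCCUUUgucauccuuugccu
rno-miR-204-3p: gCUGGGAAggcaaagggacguu
rno-miR-211-3p: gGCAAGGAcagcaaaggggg

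All 4 lie on the plus strand of chromosome 1 in that build: miR-204-5p at chr1:229743493-229743514, miR-204-3p at chr1:229743532-229743553, miR-211-5p at chr1:127189353-127189374 and miR-211-3p at chr1:127189389-127189408. The 5p arms share the seed UCCCUUU and are identical at 21 of 22 bases. They differ by the substitution A17U, counted from 1 at the 5′ end of miR-204-5p, so the split of reads between them rests on 1 base and its error is not known. The 3p arms have different seeds, CUGGGAA and GCAAGGA, and match at 13 of 19 aligned bases. Sequences were found for 674 names of the table, and none of these outside the 4 members carries any of the 3 seeds. In the annotation Mir204 is the 1 miRNA hairpin inside Trpm3 and Mir211 the 1 inside Trpm1.

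Depth was the sum of miRNA counts in a library, which ran from 1162307 to 5223469 per rat with a median of 2713557. The median total of UEF rats was 2982653.5, that of Monash rats 2033040 and that of UCLA rats 2309929. Values below are counts or CPM, that is counts in each 1000000 of a library total adjusted by edgeR's TMM factors, which allow for libraries filled by a few very abundant miRNAs. Some libraries stand apart, among them sham rat 3 of UEF. It had the highest total, the liver miRNA miR-122-5p took 55.1% of its counts (95% Wilson interval 55.0 to 55.1, counting error alone), and its TMM factor was 0.333, which raises its CPM above what the plain total would give. Its 740 counts of miR-204-5p are 425 CPM with TMM but 142 when scaled to the plain total, a scale on which 9 rats lie higher, 3 of them sham rats (rat 3 of UCLA at 244, rats 2 of UCLA and UEF at 194 each) and 6 injured (145 to 175). The main results that rest on this rat are therefore given with and without it. TBIN rat 2 of UEF also stands apart, with the next lowest TMM factor (0.644) and the highest summed level of all 29 rats in 4 of the marker lists described below: red blood cells (633490 CPM), muscle (53047), general epithelium (5910) and pancreatic islets (5822). Without it the value of miR-204-5p in TBIE against TBIN rats was −0.021 in place of −0.19 and that in UEF against Monash rats −0.059 in place of 0.13, while miR-211-5p in UEF against UCLA rats was 0.91 (adjusted p = 0.0192 by edgeR) in place of 0.92. The processing notes do not say whether reads of the same molecule were merged, so a count may be a read or a molecule.

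All 4 miRNAs had at least 10 counts in each of the 29 rats. The most abundant, miR-204-5p, had 45 to 740 counts per rat (median 220), ranked 197 of 754 by mean count and held 49.7% of the counts of the 4. The next, rno-miR-211-3p, had 65 to 265 counts (median 156) and ranked 265. For miR-211-5p the range was 11 to 168 (median 57, rank 445), and for rno-miR-204-3p 21 to 71 (median 44, rank 548). Together these were trace species in plasma: miR-204-5p made up 0.0103% of all counts and the other three 0.00625%, 0.00248% and 0.00169% in that order. Counts of the 5p arms varied more between rats, with coefficients of variation of 73.0% for miR-204-5p and 62.6% for miR-211-5p against 34.0% for miR-211-3p and 31.6% for miR-204-3p.

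The level of rno-miR-204-5p, the abundant arm of its hairpin, ranged from 18.5 to 425 CPM with a median of 88.7. The 4 UEF sham rats had 46.0, 238, 425 and 60.0 CPM, the UEF TBIN rats 66.4, 225, 97.3 and 162, and the UEF TBIE rats 88.7, 68.9, 61.4 and 92.1. The sham rats at UEF thus fell into a high and a low pair, and the injured rats lay between these extremes. At Monash the sham rats had 53.0, 47.1 and 126 CPM, the TBIN rats 179, 63.5 and 210, and the TBIE rats 135 and 98.0. Of the 5 injured Monash rats 3 lay above every sham rat of that site. At UCLA the sham rats had 53.2, 136 and 187 CPM, the TBIN rats 18.5, 28.5 and 24.8, and the TBIE rats 112, 44.2 and 32.6. Here 5 of 6 injured rats lay below every sham rat of the site, and the 3 TBIN rats were the lowest of all 29 rats in CPM. When scaled to the plain total, UCLA TBIE rat 3 (23.4) lay below UCLA TBIN rats 2 (30.3) and 3 (29.1).

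The level of rno-miR-211-5p, which carries the same seed, ranged from 7.52 to 47.2 CPM with a median of 23.2. At UEF the sham rats had 28.2, 32.1, 19.5 and 25.1 CPM, the TBIN rats 35.6, 38.6, 28.3 and 47.2, and the TBIE rats 41.6, 45.4, 27.3 and 23.2. At Monash the sham rats had 23.2, 18.5 and 8.94 CPM, the TBIN rats 24.9, 28.0 and 15.7, and the TBIE rats 15.4 and 19.7. With TMM the 12 UEF rats all lay above the medians of the other sites, 19.1 CPM at Monash and 13.7 CPM at UCLA. When scaled to the plain total, sham rat 3 of UEF had 6.51. That is below every rat of the other sites, where the lowest had 9.46 (Monash sham rat 3) and 7.28 (UCLA TBIE rat 2). The UCLA sham rats had 24.6, 14.3 and 17.7 CPM, the TBIN rats 11.1, 13.02 and 11.8, and the TBIE rats 39.9, 7.52 and 13.7. One UCLA rat, TBIE rat 1, was therefore far above the rest of its site for miR-211-5p in CPM. Its value on the plain total, 28.7, was close to that of sham rat 1 of UCLA (28.0).

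Over all 29 rats the 3p arms were steadier. Their CPM had coefficients of variation of 27.1% (miR-204-3p) and 35.9% (miR-211-3p), against 79.5% and 45.8% for the 5p arms. For miR-211 this did not hold in every group. Its 3p arm varied more than its 5p arm at UEF (35.2% against 27.4%), at Monash (36.7% against 31.5%) and in sham rats (48.1% against 32.2%). It varied less in TBI rats (27.9% against 49.2%) and at UCLA. For miR-204-3p the range was 9.15 to 28.5 CPM (median 17.9), with a median of 14.98 in UEF rats, 19.0 in Monash rats and 17.1 in UCLA rats. For miR-211-3p, more abundant than the 5p arm of its own hairpin, it was 37.3 to 120 CPM (median 59.6), with site medians of 69.7, 68.6 and 51.4. In both miRNAs the ranges of the 3 sites overlapped.

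**Figure D1:**
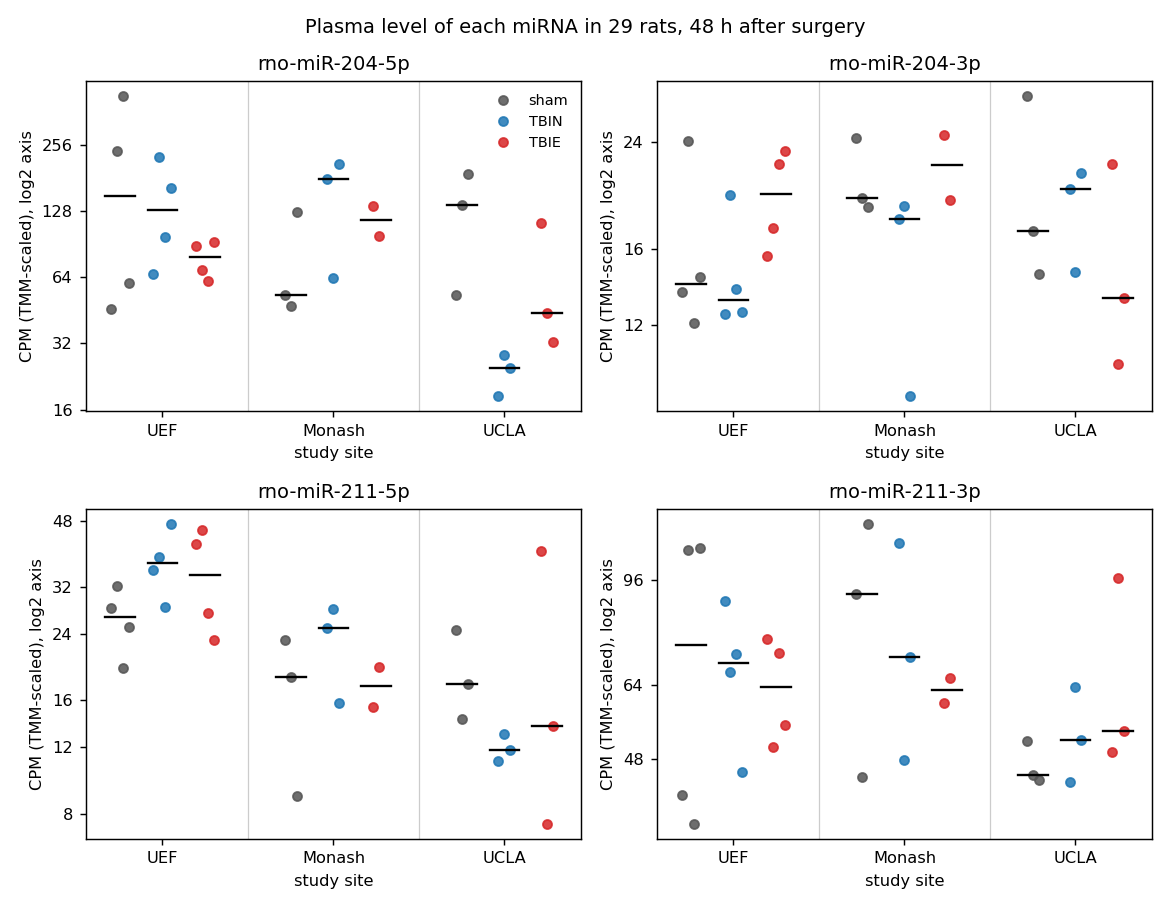
Level of each of the 4 miRNAs in each rat, in CPM on a log2 axis, by site and by group (sham, TBIN, TBIE); each point is a rat and the black bar is the group's median. The 3 UCLA TBIN rats have the lowest miR-204-5p, 18.5 to 28.5 CPM, and the UEF rats lie high for miR-211-5p, 19.5 to 47.2 CPM.

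Ordered by mean CPM over the 9 groups of site and outcome, miR-204-5p went from 192 (SD 178, n = 4) in UEF sham rats, through Monash TBIN (151), UEF TBIN (137), UCLA sham (126), Monash TBIE (117), UEF TBIE (77.8), Monash sham (75.4) and UCLA TBIE (63.0), to 23.9 (SD 5.08, n = 3) in UCLA TBIN rats. The values of neighbouring groups overlapped in 6 of 8 places. The exceptions were Monash TBIE above UEF TBIE, and UCLA TBIE above UCLA TBIN. On the plain total these pairs overlapped as well. There UEF TBIE rat 4 (162) lay above Monash TBIE rat 2 (136), and UCLA TBIE rat 3 (23.4) below UCLA TBIN rat 2 (30.3). The top and bottom means were 8.04-fold apart and their values did not overlap, though the top mean rests on sham rats 2 and 3 of UEF. Without sham rat 3 the UEF sham mean was 115 (SD 107, n = 3), just below Monash TBIE, and the highest group, Monash TBIN, was 6.30-fold above UCLA TBIN. For miR-211-5p the 3 UEF groups came first, TBIN (37.4), TBIE (34.4) and sham (26.2), followed by Monash TBIN (22.9), UCLA TBIE (20.4), UCLA sham (18.9), Monash TBIE (17.5), Monash sham (16.9) and UCLA TBIN (12.0). All 8 pairs of neighbours overlapped, while the 3.13-fold extremes did not. The 3p arms spanned 1.501-fold in miR-204-3p (Monash TBIE 21.9 to UEF TBIN 14.6) and 1.81-fold in miR-211-3p (Monash sham 85.1 to UCLA sham 46.9), with overlap even between the extremes.

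Injury was compared with sham over all sites, the question being whether these miRNAs differ in plasma 48 h after TBI. In CPM, miR-204-5p ran from 46.0 to 425 in sham rats (median 93.0, n = 10) and from 18.5 to 225 in TBI rats (median 88.7, n = 19). The groups overlapped, with 5 of 19 TBI rats below every sham rat and 8 of 19 above the sham median. With site in the model its log2 fold change (TBI over sham) was −0.66 (SE 0.36; adjusted p = 0.551 by edgeR's quasi-likelihood test with Benjamini-Hochberg adjustment over 751 miRNAs). Without sham rat 3 of UEF it was −0.35 (adjusted p = 0.891 by edgeR), without the UCLA rats −0.17 (0.931) and without the Monash rats −1.14 (0.129). For miR-211-5p the median was 21.4 CPM in sham and 24.9 in TBI rats, 6 of 19 TBI rats lay above every sham rat, and the log2 fold change was 0.20 (SE 0.22, edgeR adjusted p = 0.828). It was 0.13 without sham rat 3 of UEF, 0.055 without TBIE rat 1 of UCLA, 0.31 without sham rat 1 of UCLA and 0.41 without the UCLA rats. The 3p arms had values near 0, −0.10 (SE 0.18) for miR-204-3p and −0.043 (SE 0.20) for miR-211-3p, with edgeR adjusted p of 0.919 and 0.961. Medians of miR-204-3p were 17.9 CPM in both groups, with 9 of 19 TBI rats above the sham median. Those of miR-211-3p were 48.3 CPM in sham and 63.5 in TBI rats, with 16 of 19 TBI rats above the sham median. The pooled ranks thus lean the other way from the fitted value, which allows for site. Its pooled means, 69.2 CPM in sham and 65.4 in TBI rats, lean as the fitted value does. The sham values were skewed. UEF sham rats 2 and 4 had 108 and 109 CPM, and Monash sham rats 1 and 3 had 91.1 and 120. All other sham rats had 37.3 to 51.4 CPM. Within sites 2 of 8 injured rats at UEF, 1 of 5 at Monash and 5 of 6 at UCLA lay above their own sham median. Called miRNAs, those with adjusted p below 0.05, were 0 of the 4, against 1.20% (9) of the 751 tested by edgeR. At an unadjusted p below 0.05 there were 0 of the 4 and 83 of 751, and DESeq2 called 0 of the 4 and 24 in all. The median log2 fold change of the 4 was −0.071, beside 0.025 over all 751.

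The injury contrast of miR-204-5p had different signs at the sites. Its log2 fold change in UEF rats was −0.83 (SE 0.50), in Monash rats 0.87 (SE 0.63) and in UCLA rats −1.53 (SE 0.57), and the edgeR adjusted p was 0.458, 0.864 and 0.343. The UEF value rests on sham rat 3, without which it was −0.061 (adjusted p = 1.00 by edgeR), and with normalization to miR-28-3p in place of TMM, which raises the median of all miRNAs there by 0.33, it was 0.0125. The Monash value was 1.45 without sham rat 3 of Monash and 0.65 without sham rat 2. At UCLA 5 of 6 injured rats lay below every sham rat, and leaving out 1 rat at a time gave −2.10 (without TBIE rat 1) to −1.12 (without sham rat 3). Whether the injury effect differed between sites was tested directly, and miR-204-5p had an edgeR adjusted p of 0.318 (unadjusted 0.0297), or 0.339 without sham rat 3 of UEF. The opposite signs were therefore not shown to differ at the threshold. For the other three the adjusted p of that test was 0.698 (miR-211-5p and miR-211-3p) and 0.843 (miR-204-3p).

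For miR-211-5p the injury contrast was 0.45 (SE 0.33) at UEF, where 5 of 8 injured rats lay above every sham rat, 0.29 (SE 0.40) at Monash and −0.21 (SE 0.38) at UCLA, where 5 of 6 lay below. Single rats moved these values: the Monash contrast was 0.0013 without sham rat 3 of Monash and 0.57 without its sham rat 1, and the UCLA contrast ran from −0.75 without TBIE rat 1 to −0.024 without sham rat 1. The 3p arms stayed between −0.26 and 0.35 at all sites. Calls among the 4 were 0 at UEF (3.86% of all 751 miRNAs), 0 at Monash (0% of all) and 0 at UCLA (0.266% of all), and 0 for the test of the injury effect by site (1.07% of all). These counts over all miRNAs moved with single rats. The 29 calls at UEF became 14 without sham rat 3 of UEF and 19 without sham rat 2, but 56 without sham rat 1 and 46 without sham rat 4. The 8 calls of the effect by site became 0 without sham rat 3 of UEF and also without any of 7 others (UEF TBIN 3, TBIE 2 and TBIE 4, Monash sham 1, and UCLA TBIN 2, TBIE 1 and TBIE 3), and the 9 of TBI against sham became 5 without sham rat 3 of UEF and 1 without sham rat 4. At an unadjusted p below 0.05 edgeR gave 0, 0 and 1 of the 4 at these sites and 1 for the effect by site, and DESeq2 called 0 of the 4 in each. Over all miRNAs the counts at an unadjusted p below 0.05 were 119, 56 and 85 within the sites and 105 for the effect by site, and DESeq2 called 51, 5, 7 and 17.

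A measure of red cell lysis was higher in injured than in sham rats at UCLA. The log2 ratio of miR-451-5p, abundant in red cells, to miR-23a-3p, which lysis affects little, was −2.55, −2.90 and −3.33 in the sham rats of UCLA, −1.06, −1.87 and −2.38 in its TBIN rats and −1.68, −2.37 and −1.70 in its TBIE rats. The 6 injured rats thus lay above the 3 sham rats. At UEF 6 of 8 injured rats and at Monash 0 of 5 lay above every sham rat of the site, and the highest ratio of all 29 rats, −0.87 in TBIN rat 2 of UEF, stood beside 225 CPM of miR-204-5p, above 2 of the 4 sham rats of that site. The summed CPM of the 7 red cell miRNAs, led by miR-16-5p, was 212820 to 326870 in UCLA sham and 364170 to 569090 in UCLA TBI rats. These sums overlapped at the other sites, with 128870 to 204890 in UEF sham and 167820 to 633490 in UEF TBI rats, and 186790 to 460080 in Monash sham and 212910 to 322880 in Monash TBI rats. With this ratio as a term of the model the injury contrast of miR-204-5p was −1.29 in place of −1.53 at UCLA and −0.13 in place of −0.66 over all sites. The paper on these rats reported no hemolysis in any sequenced sample from qPCR of miR-23a and miR-451. Its absorbance measure lay slightly above the acceptance limit in single pooled samples of Monash and UCLA. The part of lysis in the miR-204-5p values was not tested further.

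**Figure D2:**
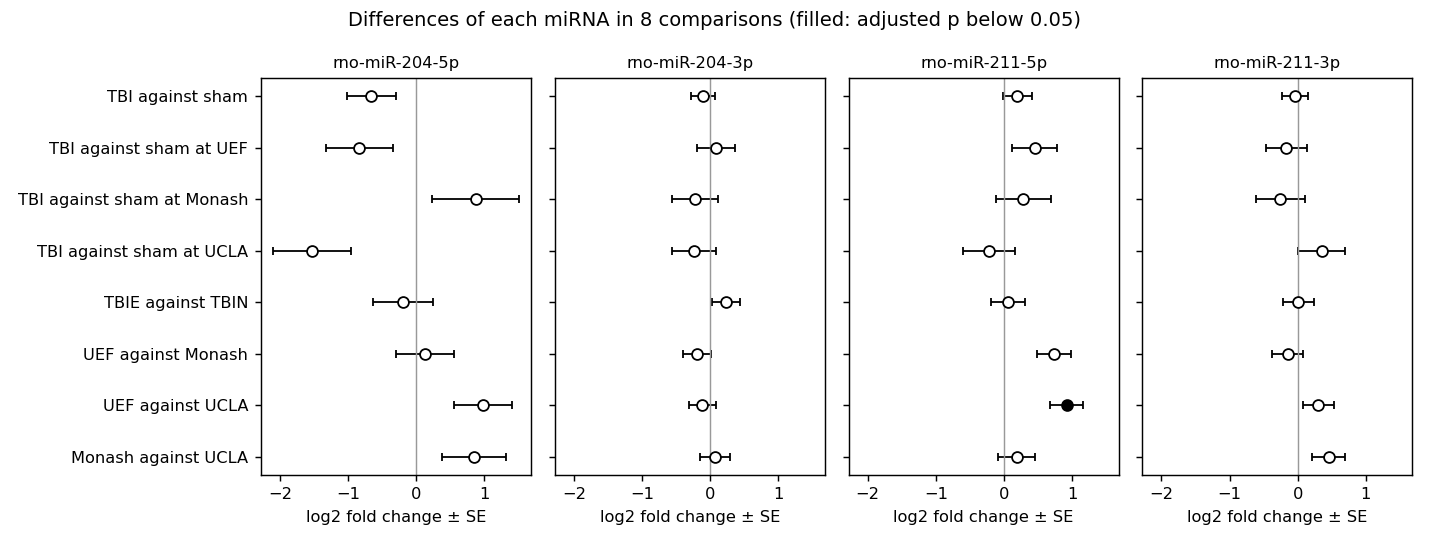
Log2 fold changes of the 4 miRNAs from edgeR in 8 comparisons, with bars of 1 SE; filled points have an adjusted p below 0.05. The 1 filled point is miR-211-5p in UEF against UCLA (0.92), and the injury contrast of miR-204-5p lies at −0.83, 0.87 and −1.53 at UEF, Monash and UCLA.

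Among injured rats, those with later epilepsy were compared with those without, the question being whether the early plasma level separates the outcomes. In CPM, miR-204-5p ran from 32.6 to 135 in TBIE rats (median 88.7, n = 9), inside the range of 18.5 to 225 in TBIN rats (median 81.8, n = 10). For miR-211-5p the ranges were 7.52 to 45.4 (median 23.2) and 11.1 to 47.2 (median 26.5). The TBIE rats were therefore spread among the TBIN rats in both 5p arms. Log2 fold changes (TBIE over TBIN) were −0.19 (SE 0.44) for miR-204-5p, 0.23 (SE 0.21) for miR-204-3p, 0.060 (SE 0.25) for miR-211-5p and 0.0079 (SE 0.23) for miR-211-3p, each with an edgeR adjusted p of 0.998. With normalization to miR-28-3p, which moves the median of all miRNAs by 0.14 in this comparison, the value of miR-204-5p turned to 0.0072, and it was 0.29 without the UEF rats and −0.60 without the UCLA rats. Within sites the outcomes lay in different order, which was not tested. In CPM all 3 TBIE rats of UCLA were above all 3 TBIN rats for miR-204-5p. At UEF 0 of 4 and at Monash 0 of 2 TBIE rats were above the TBIN median of their site. These orders rest on TMM. On the plain total TBIE rat 3 of UCLA (23.4) lay below TBIN rats 2 (30.3) and 3 (29.1), so the outcomes overlapped there. TBIE rat 4 of UEF (162) then lay above every TBIN rat of that site (highest 146). Of the 4 miRNAs 0 were called by edgeR, against 0% of 751, with 0 and 18 at an unadjusted p below 0.05, and DESeq2 called 0 and 0.

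Site was the factor with a call. Plasma miR-211-5p was higher in UEF than in UCLA rats, with 19.5 to 47.2 CPM (median 30.2, n = 12) at UEF and 7.52 to 39.9 (median 13.7, n = 9) at UCLA. In CPM all 12 UEF rats lay above the UCLA median, though the ranges overlapped: UCLA TBIE rat 1 (39.9) and UCLA sham rat 1 (24.6) lay above the lowest UEF rats. This count rests on TMM: on the plain total sham rat 3 of UEF had 6.51, below every UCLA rat (lowest 7.28). The log2 fold change was 0.92 (SE 0.25, a 1.89-fold difference; edgeR adjusted p = 0.0152). Without sham rat 3 of UEF it was 0.98 (adjusted p = 0.00973 by edgeR). Over the 12 other settings and 29 fits with 1 rat left out it stayed called, at 0.81 to 1.19. Totals were higher at UEF, and with every rat thinned to the lowest total it was 0.98. Its seed partner miR-204-5p had a log2 fold change of 0.97 (SE 0.43) in this comparison, with medians of 90.4 and 44.2 CPM, but an adjusted p of 0.187 by edgeR, and 0.69 (0.395) without sham rat 3 of UEF. The 3p arms had −0.12 (miR-204-3p) and 0.30 (miR-211-3p). Thus 1 of the 4 was called, against 9.32% (70) of all 751 miRNAs. The median log2 fold change of the 4 was 0.61, beside 0.069 over all.

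Between UEF and Monash miR-211-5p had a log2 fold change of 0.73 (SE 0.26), with 8 of 12 UEF rats above every Monash rat, and an edgeR adjusted p of 0.0612 (unadjusted 0.00734). It passed the threshold in 3 of 12 other settings, and missed it without sham rat 3 of UEF (0.76, adjusted p = 0.0632). The other three ran from −0.19 to 0.13, of which miR-204-5p (0.13) turned to −0.071 without that rat. Here 0 of the 4 were called by edgeR, against 9.99% (75, or 55 without sham rat 3 of UEF) of all miRNAs, with 1 and 204 at an unadjusted p below 0.05, and DESeq2 called 0 and 109. Between Monash and UCLA the log2 fold changes were 0.85 (SE 0.47) for miR-204-5p, 0.068 (SE 0.22) for miR-204-3p, 0.18 (SE 0.27) for miR-211-5p and 0.45 (SE 0.25) for miR-211-3p. In that comparison edgeR called 0 of the 4 and 5.46% (41) of all, with 0 and 148 at an unadjusted p below 0.05, and DESeq2 called 0 and 59. Over the 3 sites together 1 of the 4 was called, miR-211-5p (edgeR adjusted p = 0.0149), against 14.8% (111) of all. That call was lost with normalization to miR-28-3p (adjusted p = 0.0573) and without the UEF rats (0.713), and without sham rat 3 of UEF it was 0.0119.

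Markers of other tissues also differed between UEF and UCLA, where edgeR called 9.32% of all 751 miRNAs. The 4 liver miRNAs tested were all called higher at UEF (median log2 fold change 2.30), each in 29 of 29 fits with 1 rat left out, and their summed CPM, led by miR-122-5p, had a median of 145430 in UEF, 82361 in Monash and 20530 in UCLA rats. Of 13 muscle miRNAs 4 were called higher at UEF than at UCLA, with summed medians of 2224, 5215 and 794 CPM at the 3 sites and 4 of the 13 at 0 in some rats. With 1 rat left out the call was kept in 29 of 29 fits for miR-133a-3p/133b-3p, 28 for miR-206-3p, 24 for miR-133a-5p and 18 for miR-1-3p. The pancreatic islet miRNA miR-375-3p was higher by 0.94 on the log2 scale (SE 0.28, edgeR adjusted p = 0.0295), a call kept in 23 of 29 such fits. Without TBIN rat 2 of UEF the adjusted p was 0.0569 for miR-375-3p, 0.0740 for miR-1-3p and 0.0884 for miR-133a-5p. Of the 12 neuronal miRNAs 1 was called, miR-128-3p, which was lower at UEF (−0.81, SE 0.24, edgeR adjusted p = 0.0280, or 0.0527 without sham rat 3 of UCLA), while the median of the 12 was 0.15, beside 0.069 over all miRNAs. The part of these tissues in the site difference of miR-211-5p was not tested. Site also stands for everything else that differed between the laboratories, drugs after surgery among them, and these cannot be told apart here.

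Ratios within a rat need no scaling between libraries. Counts of miR-204-5p exceeded those of miR-204-3p in 28 of 29 rats, with a median ratio of 5.04 (log2 2.33, range −0.12 to 5.11). They exceeded miR-211-5p in 29 of 29 rats, with a median ratio of 2.80 (log2 1.49, range 0.60 to 4.42). The miR-211 hairpin was the reverse: its 5p arm was above its 3p arm in 1 of 29 rats, with a median ratio of 0.379 (log2 −1.40, range −3.68 to 0.045). As counted, the 3p arm thus had the higher counts in the miR-211 hairpin and the 5p arm in that of miR-204. Reads of one 5p arm assigned to the other would move these ratios, by an amount the table does not show.

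The 3 log2 ratios were compared in 5 ways each by two-sided permutation tests, exact where a group had fewer than 10 rats. After Benjamini-Hochberg adjustment over the 15 tests 0 passed. The lowest p was that of miR-211-5p over miR-211-3p at UEF (mean −1.03, SD 0.62, n = 12) against Monash (−1.96, SD 0.85, n = 8), a difference of 0.92 (exact p = 0.00876, adjusted 0.131). Contrasts of UEF with UCLA came next: 0.77 for that ratio (exact p = 0.0305) and 1.12 for miR-204-5p over miR-204-3p (exact p = 0.0370), both with an adjusted p of 0.185. Without sham rat 3 of UEF these 3 differences were 0.91, 0.76 and 0.91, and 0 of 15 passed. The injury difference of miR-204-5p over miR-211-5p was −0.58 (permutation p = 0.166, adjusted 0.441; −0.35 without sham rat 3 of UEF), with −0.84 at UEF, 0.54 at Monash and −1.22 at UCLA (exact p = 0.238, 0.5 and 0.0595). Of these the UEF value was −0.14 without sham rat 3 and −1.38 without sham rat 1 of that site, and the Monash value 0.081 without its sham rat 1 and 1.37 without its sham rat 3. The miR-204-5p over miR-204-3p ratio had injury differences of −0.51, 1.16 and −1.39 at the same sites (exact p = 0.465, 0.179 and 0.119), of which the UEF value turned to 0.17 without sham rat 3. Its Monash value ran from 0.754 (without TBIN rat 3 of Monash) to 1.671 (without sham rat 3 of Monash). Its UCLA value ran from −2.202 (without sham rat 1 of UCLA) to −0.81 (without sham rat 3 of UCLA). The miR-211 arm ratio had 0.45, 0.56 and −0.70 (exact p = 0.246, 0.411 and 0.345), of which the Monash value turned to −0.13 without sham rat 3 of Monash and the UCLA value was −0.38 without TBIE rat 2. The UEF value of this ratio was 0.193 without sham rat 4 of UEF and 0.709 without sham rat 1 of UEF. The smallest p these designs allow is 0.00202, 0.0179 and 0.0119. Between TBIE and TBIN rats the 3 differences were −0.25, −0.040 and 0.015, with TBIE rats spread less in the miR-204 arm ratio (SD 0.43, n = 9) than TBIN rats (SD 1.55, n = 10), a difference in spread that was not tested. Without TBIN rat 2 of UEF the 3 differences were −0.118, 0.0456 and 0.0908.

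**Figure D3:**
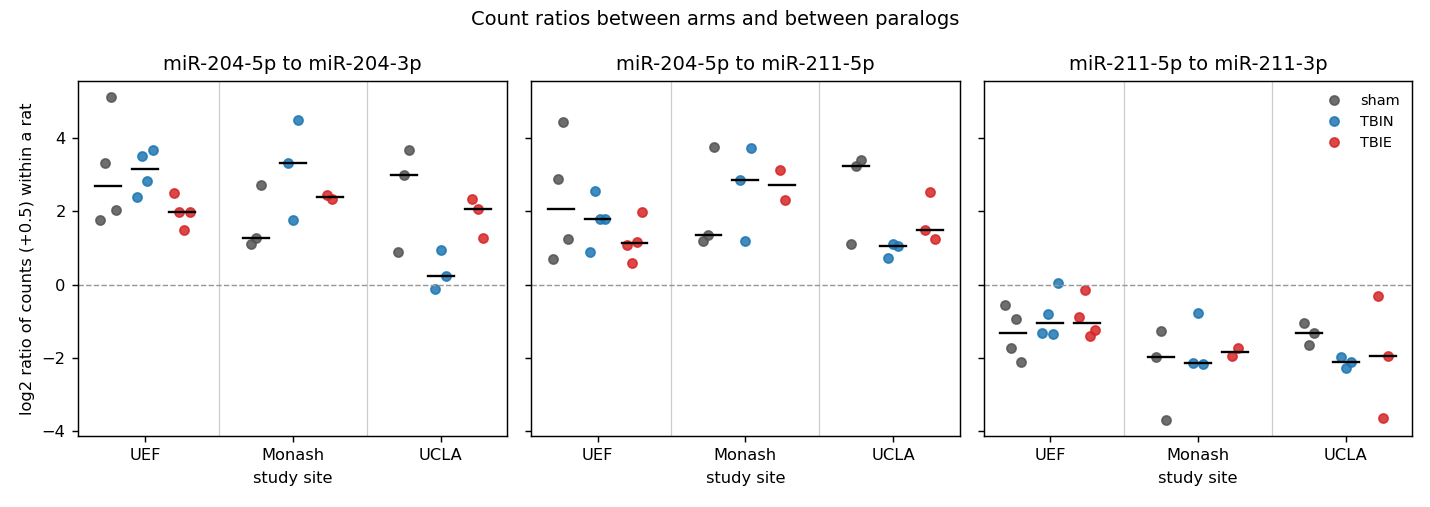
Log2 ratio of counts (0.5 added to each) within each rat for miR-204-5p over miR-204-3p, miR-204-5p over miR-211-5p and miR-211-5p over miR-211-3p, by site and group; bars are group medians and the dashed line marks equal counts. The first ratio lies above 0 in 28 of 29 rats, the second in 29 and the third in 1.

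Across the 29 rats the members did not track each other closely. Of 6 pairs, compared on log2 CPM, the highest correlation over the pooled sites was that of the seed partners miR-204-5p and miR-211-5p, with Pearson r = 0.32 (permutation p = 0.0910, adjusted over 6 pairs 0.546) and Spearman rho = 0.32 (permutation p = 0.0861, adjusted 0.516). Without the 2 rats farthest from the median of miR-204-5p (UEF sham 3 and UCLA TBIN 1) r was 0.30 (permutation p = 0.131). Within sites, the 12 UEF rats gave a rho of 0.084, the 8 Monash rats −0.29 and the 9 UCLA rats 0.70, so the pooled value does not describe each site. With site means removed rho was 0.197 for this pair and 0.197 also for miR-204-3p with miR-211-5p, which had 0.033 before. Arms of the same hairpin, which are made from the same precursor, did not pass the test either: miR-204-5p and miR-204-3p had r = −0.13 and rho = −0.074 (permutation p = 0.519 and 0.702), and miR-211-5p and miR-211-3p r = −0.057 and rho = 0.034 (permutation p = 0.766 and 0.857). Without their 2 farthest rats r turned to 0.016 for the miR-204 arms (UEF sham 3 and UCLA TBIN 1) and to 0.24 for the miR-211 arms (UCLA TBIE 2 and Monash sham 3). The other 3 pairs had r between −0.011 and 0.13, or −0.10 to 0.18 without 2 such rats, and the lowest adjusted p over the 6 pairs was that of the seed partners. The points share library, depth and normalization, and counts of the 3p arm of miR-204 and the 5p arm of miR-211 were low.

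**Figure D4:**
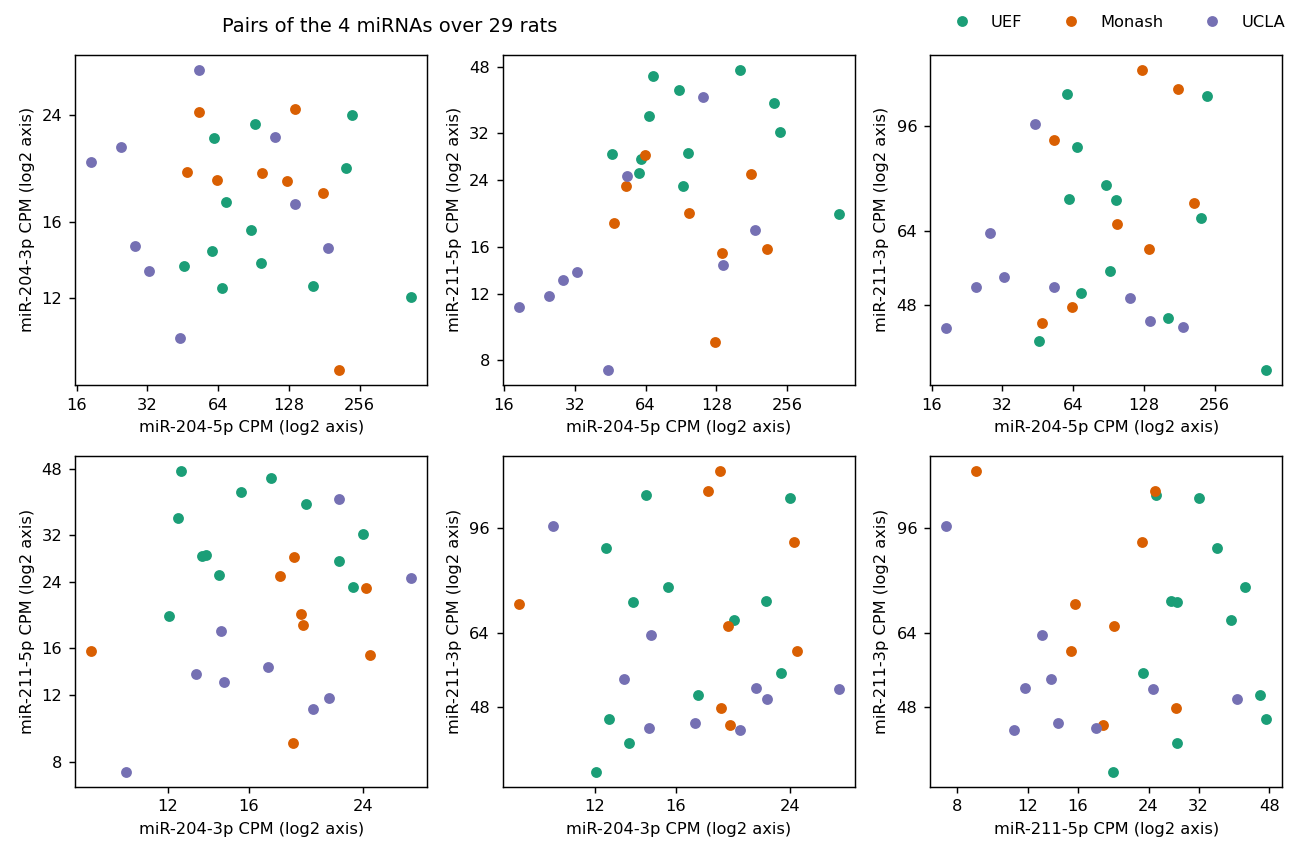
The 6 pairs of members, each point a rat with its log2 CPM of either miRNA, coloured by site. The pair miR-204-5p and miR-211-5p has the highest pooled r (0.32), and UEF points lie to the high side of miR-211-5p.

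The miRNAs whose levels over the 29 rats were most like each member were listed by Spearman rho of log2 CPM, as a description. Those most like miR-204-5p were miR-125b-5p (rho 0.76), miR-3588 (0.76), miR-10a-5p (0.73), miR-143-3p (0.70) and miR-190a-5p (0.68), where the median over all miRNAs was −0.044. Against these values its seed partner miR-211-5p ranked 84 of 750, miR-211-3p 225 and miR-204-3p 413. For miR-211-5p they were miR-221-3p (0.63), miR-205 (0.59), miR-222-3p (0.55), miR-3588 (0.53) and miR-3556a (0.53), with miR-204-5p at rank 65, so miR-3588 stood in both lists. For miR-211-3p they were miR-379-5p (0.62), miR-341 (0.59), miR-547-5p (0.52), miR-376a-5p (0.52) and miR-878 (0.51). The likeness was weakest for miR-204-3p, led by miR-331-5p and miR-541-5p (0.48 each), then miR-450a-3p (0.46), miR-146a-3p (0.44) and miR-883-5p (0.43). No member was among the 5 most like another member.

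The label of choroid plexus was set beside other miRNAs of that tissue. The gene Htr2c, a serotonin receptor abundant in choroid plexus, hosts a cluster of miRNAs. A list of 5 stems known from this cluster was used, of which 4 were found in the table (miR-1264 was not matched), as 7 miRNAs that all passed the count filter. The RefSeq annotation of GRCr8 places 5 hairpins inside rat Htr2c: those 4 and Mir3552, which the list lacks, but not miR-1264. The summed level of the 7 was 58.2 to 228 CPM (median 116), beside 93.5 to 494 CPM (median 203) for the 4 members. The most abundant of the 7, miR-1298, held 36.4% of the list's counts with 20.3 to 98.6 CPM (median 34.6), while miR-1912-5p was at 0 counts in 15 rats, where the limit of 3 counts allows a level of up to 0.643 to 2.27 CPM of the plain total, depending on the rat, and miR-448-3p in 2 rats. Summed medians were 109 CPM in sham and 116 in TBI rats, and 128 in UEF, 106 in Monash and 118 in UCLA rats. Of the 7, 0 were called by edgeR or DESeq2 in any of the 7 comparisons, and the counts at an unadjusted p below 0.05 were 1 in UEF against Monash (miR-764-3p, 0.76, SE 0.34, unadjusted p = 0.0345 and adjusted p = 0.151 by edgeR) and 0 in the others. Between TBI and sham the lowest p was also that of miR-764-3p (−0.44, SE 0.28, edgeR adjusted p = 0.642), and the median log2 fold change of the 7 was 0.010, beside 0.025 over all miRNAs. Between sites their median was 0.094 beside 0.069 over all in UEF against UCLA, where miR-211-5p was higher, 0.48 beside 0.062 in UEF against Monash and −0.34 beside 0.0037 in Monash against UCLA. The added miR-3552, taken up after its values were seen, was more abundant than any of the 7, with 42.8 to 196 CPM (median 69.1), and had −0.28 (SE 0.19, edgeR adjusted p = 0.648) between TBI and sham and −0.26 (SE 0.21, edgeR adjusted p = 0.550) between UEF and UCLA. With it the 8 miRNAs of the annotated set summed to 114 to 339 CPM (median 191), 0 of 8 were called by edgeR or DESeq2 in the 7 comparisons (1 at an unadjusted p below 0.05 in UEF against Monash, 0 in the others), and their median was −0.0080 between TBI and sham. Counts of both groups were thus present in plasma, and since neither is known from choroid plexus alone, they do not place the source there.

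Choroid plexus and the ependyma beside it are ciliated epithelia, so miRNAs of such cells were also counted. Of 5 stems for ciliated cells 4 were found (miR-449b was not matched), giving 8 miRNAs with a summed level of 182 to 726 CPM (median 253), led by miR-34b-3p with 34.8% of the counts; miR-449c-5p was at 0 in 12 rats. One of them, miR-449a-3p, was lower at UEF than at Monash (−1.41, SE 0.41, edgeR adjusted p = 0.0359; −0.51 and 0.264 without TBIN rat 2 of Monash, and called in 25 of 29 fits with 1 rat left out) and called over the sites together (0.0439), and 0 of 8 were called between TBI and sham (0 at an unadjusted p below 0.05, 0 by DESeq2). Over all miRNAs edgeR called 9.99% in UEF against Monash, 14.8% over the sites together and 1.20% between TBI and sham. The 9 miRNAs of the general epithelial miR-200 list summed to 1003 to 5910 CPM (median 1762), led by miR-429. Among them edgeR and DESeq2 called 0 in each of the 7 comparisons, with at most 2 at an unadjusted p below 0.05 (UEF against UCLA, for example) and 0 in TBI against sham.

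The neuronal and liver lists, far more abundant than the 4 members, held calls with injury. Over all 751 miRNAs edgeR called 9 (1.20%) between TBI and sham, DESeq2 called 24, and 83 had an unadjusted p below 0.05 by edgeR. The 12 neuronal miRNAs, with miR-128-3p holding 93.2% of their counts, had a summed level of 2633 to 8844 CPM in sham (median 4352) and 4296 to 15807 in TBI rats (median 8828). In that list miR-128-3p (log2 fold change 0.99, SE 0.23) and miR-129-5p (0.94, SE 0.20) rose with injury, both with an edgeR adjusted p of 0.0187 (0.0516 without sham rat 4 of UEF), and miR-129-5p was also not called without sham rat 2 of UEF. At an unadjusted p below 0.05 there were 6 of the 12, DESeq2 called 3, and their median log2 fold change was 0.36. In the liver list miR-122-5p fell by 1.65 over the pooled sites (SE 0.42, edgeR adjusted p = 0.0379). This call rests on single rats: without sham rat 3 of UEF, whose library it fills, the value was −1.11 (adjusted p = 0.177 by edgeR), and it was called in 18 of 29 fits with 1 rat left out. All 4 liver miRNAs had an unadjusted p below 0.05, DESeq2 called 4 of 4, and their median was −1.26, beside 0.025 over all miRNAs. Their summed CPM had a median of 420540 in sham and 57922 in TBI rats of UEF, and 128470 and 69041 at Monash. At UCLA these medians were 18793 and 20751, with no fall. For the injury effect by site edgeR called 0 of 4 and DESeq2 1, with 4 at an unadjusted p below 0.05. There miR-122-5p had an edgeR adjusted p of 0.184 (unadjusted 0.00408). The red cell list had 0 of 7 calls in each comparison by edgeR, with at most 3 at an unadjusted p below 0.05 (the injury effect by site) and 1 by DESeq2 in TBI against sham, where its median log2 fold change, 0.40, was above that of the neuronal list. Of 6 platelet and white cell miRNAs 0 were called with injury (2 at an unadjusted p below 0.05, 0 by DESeq2; median 0.25), 3 were lower at UEF than at Monash (miR-142-5p, miR-223-3p and miR-223-5p, kept in 24, 15 and 25 of 29 fits with 1 rat left out) and 1, miR-150-3p, lower at UEF than at UCLA (26 of 29). Over all miRNAs edgeR called 9.99% in UEF against Monash and 9.32% in UEF against UCLA. The 13 muscle and 2 islet miRNAs had 0 calls with injury by edgeR, 0 by DESeq2 and 0 at an unadjusted p below 0.05.

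**Figure D5:**
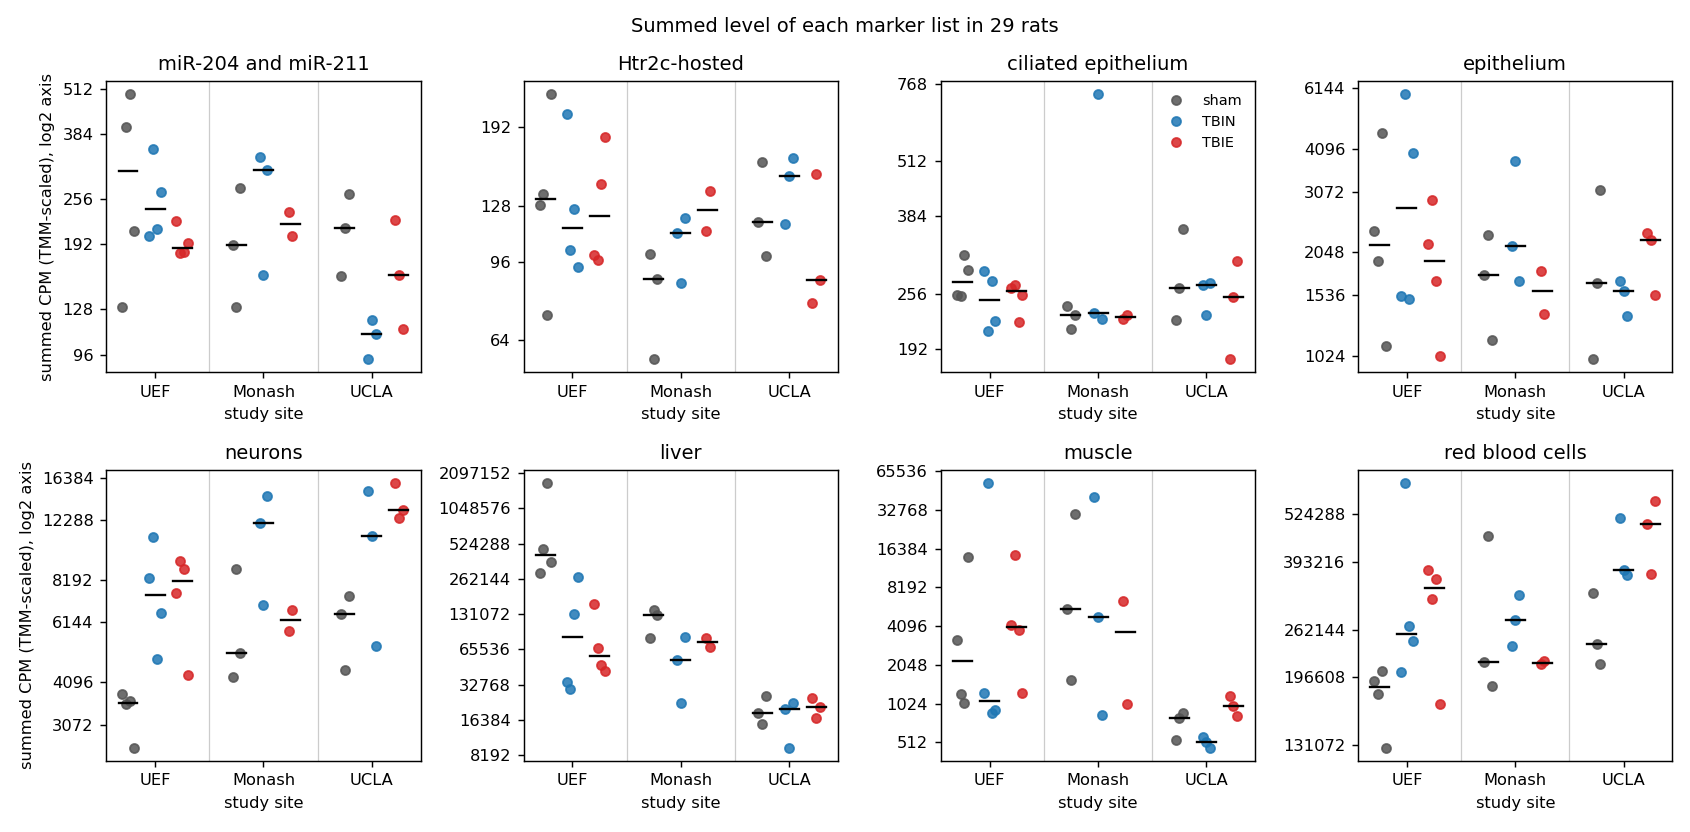
Summed CPM per rat, on log2 axes, of the 4 members and of 7 marker lists (Htr2c-hosted, without miR-3552, and ciliated epithelium, epithelium, neurons, liver, muscle, red blood cells), by site and group. The 7 Htr2c-hosted miRNAs lie at 58.2 to 228 CPM without separating sham from TBI, and the neuronal miRNAs at 2633 to 15807 CPM with a higher median in TBI.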

How the data were processed

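The deposited table holds raw counts of 754 mature miRNAs in plasma of 29 rats. Per the processing notes, the authors made libraries with a QIAseq miRNA kit that carries unique molecular identifiers, ran cutadapt on the reads, used Bowtie for mapping to Rnor_6.0 and took miRNA names from miRBase version 21, with no tool versions given. Totals were 1162307 to 5223469 counts per rat, and 7 names join miRNAs that share a count.

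Counts were fitted in R 4.3.3 by edgeR 4.0.16 on limma 3.58.1. The 751 miRNAs kept by filterByExpr at its minimum count of 10 were scaled by TMM and tested, two-sided, by the quasi-likelihood F test, and a miRNA was called at a Benjamini-Hochberg adjusted p below 0.05 over the 751. Terms were site and sham, TBIN or TBIE. Injury over sham is the mean of TBIN and TBIE minus sham, and the injury effect by site used means of site by injury. The biological coefficient of variation was 0.475. Level changes are log2 fold changes with SE, CPM are TMM-scaled, and correlations used log2 CPM with a prior count of 2. Ratios added 0.5 to each count and were tested by two-sided permutation of mean differences, exact where a group had fewer than 10 rats and otherwise with 100000 resamples. Permutations and adjusted p outside R used scipy 1.17.1 with statsmodels 0.14.6 under Python 3.11.15, tables pandas 2.3.3 on numpy 2.4.6, and plots matplotlib 3.10.9.

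Named miRNAs are the 4 members, the 5 most like each by Spearman rho, and from each list the most abundant and those with the lowest p in TBI against sham. Lists, matched by exact stem, were Htr2c-hosted miRNAs, ciliated epithelium, epithelium, neurons, red blood cells, liver, muscle, endocrine pancreas, and platelets and white cells. List miRNAs named for calls between sites were chosen after their values were seen, as were the set of all annotated Htr2c hairpins and, with each rat left out, the fits of called list miRNAs and the ratio differences within sites. The members and lists were chosen with earlier results of these data known. Alternatives were DESeq2 1.42.0, edgeR with RLE, upper-quartile or miR-28-3p scaling in place of TMM, other count filters, thinning to the lowest total, leaving out the 3 most abundant miRNAs, models without the other factor or with the miR-451-5p to miR-23a-3p ratio, replicate number as a block, each site or each rat left out, a pseudocount of 2 and site means removed. Raw reads and other RNA classes were not used here.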

Additional observations from a re-analysis of the deposited data

Results flagged for a closer look

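Among 56 groups of 4 to 10 rats, 4 held a rat whose gap to its nearest neighbour was large for the range of its group. Chance gives about 1 in 20 for separate groups of normally distributed values. These groups share rats and CPM was not log-transformed here, so that rate is only a rough guide. Among the sham rats, sham rat 3 of UEF had 425 CPM of miR-204-5p, where the others had 46.0 to 238. Among the Monash rats, TBIN rat 3 had 9.15 CPM of miR-204-3p, where the others had 17.9 to 24.6. Among the UCLA rats, TBIE rat 2 had 96.8 CPM of miR-211-3p, where the others had 43.9 to 63.5. Among the sham rats, sham rat 3 of Monash had a log2 ratio of miR-211-5p to miR-211-3p of −3.68, where the others had −2.11 to −0.56; its 11 counts of miR-211-5p were the fewest of all rats.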

How the results depend on the processing

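Over the members' tests, 449 of 472 values under other settings and 1132 of 1160 with 1 rat left out kept their direction and their side of the threshold, as did 18 of 21 and 405 of 435 ratio differences. Called list miRNAs kept their call in 682 of 812 fits with 1 rat left out, which were added after seeing the data. The values below changed and the cause was not tested, beyond fewer rats where rats are left out. Depth limits miR-204-3p and miR-211-5p most, with medians of 44 and 57 counts, and the injury effect by site rests on 3 or 4 sham and 5 to 8 injured rats per site. Replicate numbers did not pair samples: 28 pairs of the same number and site had a median r of −0.013, against −0.0078 for 68 others, so the replicate block stands here alone.

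Calls between TBI and sham, 9, became 24 with DESeq2, 17 with at least 10 counts in every rat, 15 without site in the model, 4 with the miR-451-5p to miR-23a-3p ratio, 5 with the replicate block, 0 without UEF, 21 without Monash and 14 without UCLA, and with 1 rat left out 1 (UEF sham 4) to 16 (Monash sham 2). The 111 calls over the sites became 43 without UEF, 70 without Monash and 67 without UCLA. The 75 of UEF against Monash became 46 with upper-quartile normalization, 18 with miR-28-3p, 31 with the replicate block, and 39 (without Monash TBIN 3) to 117 (without Monash TBIE 2). The 70 of UEF against UCLA became 46 with the replicate block, and the 41 of Monash against UCLA 25 (without Monash sham 3) to 59 (without UCLA TBIE 1). The 8 of the injury effect by site became 17 with DESeq2, 2 with RLE size factors, 5 with upper-quartile normalization, 3 with at least 10 counts in every rat, 4 after thinning, 3 without the 3 most abundant miRNAs, 0 with the ratio, 0 with the replicate block, and 0 (without UEF sham 3 or any of 7 others) to 10 (without UEF TBIN 4). None of these counts says which miRNAs were called.

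Normalization to miR-28-3p moved the median log2 fold change of all miRNAs by 0.33 for injury at UEF, −0.33 at UCLA and 0.14 for TBIE against TBIN. In TBI against sham, miR-204-5p (−0.66) ran from −1.14 (without Monash) to −0.13 (with the ratio) over 14 settings and from −0.80 to −0.35 with 1 rat left out. There miR-204-3p (−0.10) turned to 0.0097 without UCLA, was −0.24 without UEF, and leaving out 1 rat gave −0.15 to 0.022. For miR-211-5p (0.20) values were −0.0022 without UEF, 0.41 without UCLA, and 0.055 to 0.31 with 1 rat left out. For miR-211-3p (−0.043) the ratio gave 0.022, the replicate block 0.0050, leaving out UEF 0.045, leaving out Monash 0.044, leaving out UCLA −0.16, and leaving out 1 rat −0.10 to 0.082. In TBIE against TBIN, miR-204-5p (−0.19) was 0.0072 with miR-28-3p, 0.031 with the replicate block, 0.29 without UEF, −0.60 without UCLA and −0.34 to −0.021 with 1 rat left out, and miR-204-3p (0.23) was 0.084 without UEF and 0.50 without UCLA. There miR-211-5p (0.060) was −0.10 with the replicate block, −0.17 without UCLA, 0.22 without UEF and −0.16 to 0.15 with 1 rat left out. For miR-211-3p (0.0079) values were −0.020 with upper-quartile normalization, −0.019 with at least 10 counts in every rat, −0.043 without site, −0.0078 with the ratio, −0.14 without UCLA, and −0.14 to 0.086 with 1 rat left out.

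The adjusted p of miR-211-5p over the sites was 0.0573 with miR-28-3p and 0.713 without UEF, the highest of 14 settings, and 0.00161 to 0.0377 with 1 rat left out. In UEF against Monash its log2 fold change (0.73, adjusted p = 0.0612) was 0.77 with at least 10 counts in every rat (0.0497), 0.75 without sham, TBIN and TBIE in the model (0.0493) and 0.70 without UCLA (0.0448), which passed the threshold; over 12 settings the adjusted p was 0.0448 to 0.177. Leaving out 1 rat gave 0.63 to 0.83 and passed without UCLA TBIE 1 (0.0451). There miR-204-5p (0.13) gave −0.081 to 0.28. Within UEF, normalization to miR-28-3p turned miR-204-5p to 0.0125 and miR-211-3p to 0.023, and miR-211-3p gave −0.33 to 0.16 with 1 rat left out. At Monash miR-211-3p gave −0.54 to 0.067, and at UCLA miR-204-3p −0.43 to 0.059.

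For UEF against UCLA the log2 ratio difference of miR-204-5p to miR-211-5p (−0.0059) was 0.017 with a pseudocount of 2, and −0.25 to 0.20 with 1 rat left out. For TBIE against TBIN it (−0.040) was 0.012 with site means removed and −0.21 to 0.18 with 1 rat left out, and that of miR-211-5p to miR-211-3p (0.015) was −0.031 and −0.15 to 0.29. With 1 rat left out the latter was −0.079 to 0.27 for TBI against sham, −0.38 to 0.096 for Monash against UCLA, and 0.68 to 1.09 for UEF against Monash, with an exact adjusted p of 0.0277 without Monash TBIN 2 and 0.0437 without UEF sham 4. Within sites, also with 1 rat left out and added after seeing the data, the injury difference of miR-204-5p to miR-204-3p at UEF (−0.51) was −0.94 to 0.17, and that of miR-211-5p to miR-211-3p at Monash (0.56) −0.13 to 1.07. The exact p, unadjusted, fell below 0.05 in 4 of these 87 tests: at UEF for miR-204-5p to miR-211-5p without sham 1 (−1.38, exact p = 0.0485), and at UCLA for both ratios of miR-204-5p without sham 1 (−2.20 and −1.95) and for miR-211-5p to miR-211-3p without TBIE 1 (−1.05) (exact p = 0.0357 each). With site means removed rho was −0.026 for miR-204-5p with miR-211-3p, −0.011 for miR-204-3p with miR-211-3p and −0.14 for miR-211-5p with miR-211-3p; for miR-204-5p with miR-211-5p it was 0.197 in place of 0.324.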
